A study of Homo sapiens with 12 samples.

Results

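The transcriptome described here is that of stem cell-derived alpha cells that received only the drug vehicle. Its members are the 6 cultures labelled as treated with DMSO, of 12 samples in the series, and they were chosen by that label alone. All 6 began as HUES-8 cells, a human embryonic stem cell line in wide use, and were differentiated toward pancreatic alpha cells and then kept for 48 h in bioreactors of 30 mL stirred at 40 rpm, with DMSO as the only agent. Cultures DMSO 1 to DMSO 3 carry batch label 1 and cultures DMSO 4 to DMSO 6 carry batch label 2. The series describes these as sequencing batches. The other 6 samples received tunicamycin, a drug that causes endoplasmic reticulum stress, and were not used in any value below. RNA was read in bulk from whole cultures of 1 cell line, so fewer cells of a type and less RNA per cell cannot be told apart, and nothing in the labels says whether the cultures came from separate differentiations.

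Alpha cells are the islet cells that release glucagon, which raises blood glucose by acting on the liver. The hormone is cut from proglucagon by the convertase PCSK2, packed with granins into dense granules, and released by calcium-triggered exocytosis. Their identity rests on transcription factors that include IRX1 and IRX2, together with factors shared by all islet endocrine cells. Stem cell protocols for alpha cells are known to pass through stages in which more than one islet hormone is made.

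The sequences upstream of the start of the 3 islet hormone genes the text returns to are shown because their transcripts lead the hormone results. Each holds the 250 bases before the start site, read 5′ to 3′ on the minus strand from the RefSeq table for GRCh38.p14. They lie at chr2:162152248-162152497 for GCG (glucagon), chr3:187670395-187670644 for SST (somatostatin) and chr11:2161210-2161459 for INS (insulin). Capitals mark the TATA box letters TATAAA and the cyclic AMP response element letters TGACGTCA, searched on both strands.
GCG: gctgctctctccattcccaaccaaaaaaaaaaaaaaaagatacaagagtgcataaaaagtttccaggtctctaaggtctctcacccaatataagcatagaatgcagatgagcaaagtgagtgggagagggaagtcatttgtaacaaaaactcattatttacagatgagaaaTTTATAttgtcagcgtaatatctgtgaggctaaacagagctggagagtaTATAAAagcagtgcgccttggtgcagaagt
SST: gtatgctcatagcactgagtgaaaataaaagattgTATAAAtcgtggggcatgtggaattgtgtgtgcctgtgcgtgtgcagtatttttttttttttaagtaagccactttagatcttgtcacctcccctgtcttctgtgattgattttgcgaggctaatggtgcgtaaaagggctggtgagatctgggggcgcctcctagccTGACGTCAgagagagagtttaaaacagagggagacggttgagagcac
INS: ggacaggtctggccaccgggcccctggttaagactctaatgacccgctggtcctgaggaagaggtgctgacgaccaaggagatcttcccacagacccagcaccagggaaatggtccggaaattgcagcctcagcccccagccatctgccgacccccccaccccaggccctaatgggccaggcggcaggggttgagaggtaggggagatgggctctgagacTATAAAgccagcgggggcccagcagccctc
The TATA box stands at -30 in the GCG and INS windows and at -215 in the SST window, and the GCG window holds another on the opposite strand at -79. The response element stands at -47 in the SST window. Of 27305 windows in the table, 11.1% hold the TATA box and 1.77% hold the response element, so each is a match of letters and not an established site. The forkhead core letters TGTTTAC, held by 2.98% of the windows, were also searched and are in none of these 3. The table has no entry for TTR.

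Library totals ran from 17523442 counts in DMSO 3 to 28872269 counts in DMSO 1, with 19818 to 20903 gene symbols detected per culture. No 2 cultures agreed within sampling error (chi-square divided by the number of genes, 24.7 to 89.8), which shows only that no library is present under 2 names. Spearman correlations between cultures across genes, which are not independent replicates, were 0.954 to 0.986. Some cultures stood apart in particular gene groups. Heart muscle transcripts were high in DMSO 1, DMSO 4 and DMSO 5, neural crest transcripts were high in DMSO 1, and DMSO 3 had the fewest counts and, after TMM scaling, the lowest GCG. Levels below are in CPM, counts per 1000000 of the library total scaled with TMM factors over the 6 cultures, and the coefficient of variation (CV) is the SD over the 6 cultures as a percent of their mean. Triplets of values give the lowest, the median and the highest culture.

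GCG was the transcript with the most counts in every culture. It took 7.45% ± 1.10 (SD, n = 6) of all counts, from 6.35% in DMSO 6 (95% exact binomial interval 6.34% to 6.36%) to 8.79% in DMSO 2 (8.78% to 8.80%), and such intervals cover counting error only. The gene lies at chr2:162142873-162152404 on the minus strand of GRCh38 in GENCODE release 29, so its outermost annotated start lies within the window printed above. Its level was 62158, 70794 and 91794 CPM (CV 18.6%). DMSO 2 and DMSO 5 were highest, at 91794 and 90463 CPM, DMSO 1 was at 78129 CPM, and the other cultures lay between 62158 and 63460.4 CPM.

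TTR took the second most counts in every culture. It encodes transthyretin, a carrier of thyroid hormone and retinol that alpha cells make in quantity. Its level was 15983, 23052 and 25191 CPM (CV 18.6%), lowest in DMSO 3 and DMSO 6. GCG and TTR were the 2 genes with a mean of 10000 CPM or more. Per kilobase of exon, GCG reached 31357 CPM, TTR 9008 CPM and SST 3527 CPM, which gave them ranks 1, 2 and 4 among all genes with a known length. FTL, a ferritin chain that stores iron, had rank 3 at 4682 CPM per kilobase, but it has near-identical copies in the genome and its count is uncertain.

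SST, the hormone of delta cells, was the second islet hormone by level per kilobase. Its level was 1530.1, 955, 1149, 1395, 2814 and 5236 CPM in DMSO 1 to DMSO 6. DMSO 6 was highest and DMSO 5 next, while the other cultures stayed at or under 1530.1 CPM. The CV was 74.9% over the 6 cultures and 46.6% without DMSO 6. Per kilobase of exon, GCG exceeded SST 12.5-fold at the median, from 3.14-fold in DMSO 6 to 24.9-fold in DMSO 2. With the longest transcript as the length the median was 23.1-fold.

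INS, the hormone of beta cells, was at 214, 54, 54.4, 185, 341 and 175 CPM in DMSO 1 to DMSO 6. DMSO 2 and DMSO 3 were low and DMSO 5 was high. GCG exceeded INS per kilobase 118-fold at the median, with a range of 86.3-fold to 553-fold. With the longest transcript as the length the median was 181-fold. INS shares 31.7% of its exon bases with other genes, and the span of the read-through gene INS-IGF2 covers all of it. That read-through gene had 0 to 11 counts per culture. The sources used here do not say how reads on shared exons were treated, and whether reads on these exons were lost was not tested. IGF2 lies within the same read-through gene.

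IAPP, the amylin that beta cells release with insulin, was at 92.4, 126 and 240.2 CPM. Of 26 peptide hormone genes, 13 had 1 CPM or more in 6 of 6 cultures, as did 14156 of all 28278 symbols. NTS (neurotensin) was at 42.3, 57.7 and 167 CPM and CRH (corticotropin-releasing hormone) at 24.9, 44.3 and 70.2 CPM. GHRL, the ghrelin of epsilon cells, was at 11.1, 12.3 and 19.2 CPM, and PPY, the pancreatic polypeptide of PP cells, at 0.372, 3.54 and 6.72 CPM. Among hormones made in the gut, PYY was at 1.48 to 7.13 CPM, CCK at 0.138 to 2.58 CPM, GIP at up to 0.188 CPM and GAST at up to 0.106 CPM. GCG made up 91.4% to 98.7% of the counts of the 26 genes and SST 1.03% to 7.54%, without correction for length. The hormone list varied more between cultures than most genes, with a median CV of 63.1% over the 22 members tested against 21.8% over all 16867 genes tested. Over its members with a mean of 10 CPM or more the median CV was 52.0%, against 17.8% over the 10989 genes of that level.

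**Figure D1:**
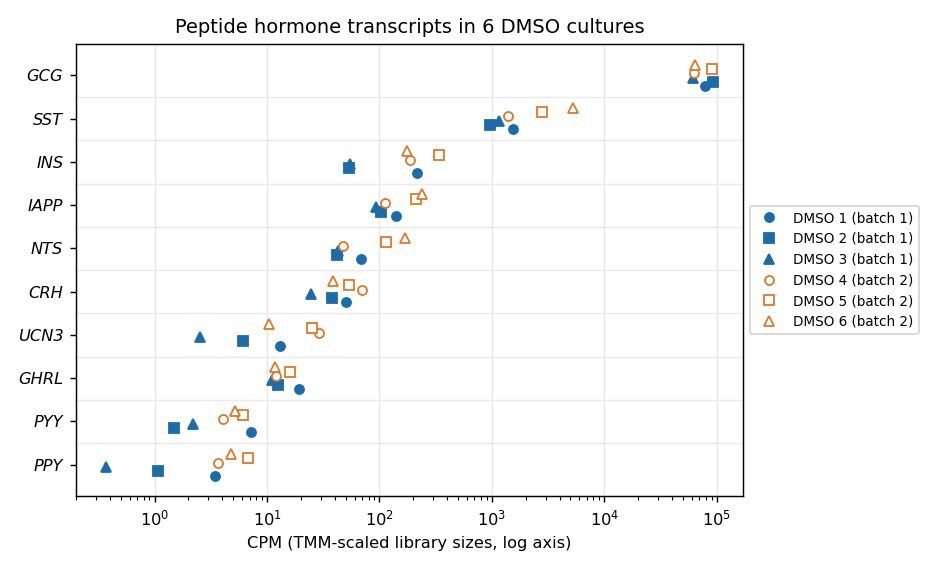
Level of 10 peptide hormone transcripts (CPM, log axis) in each of the 6 DMSO cultures, 1 point per culture, filled for batch 1 and open for batch 2. GCG lay between 62158 and 91794 CPM, SST spread from 955 to 5236 CPM with DMSO 6 highest, and INS from 54 to 341 CPM. Points are not corrected for gene length, so rows show spread over cultures and not an order of hormones.

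The transcription factors of alpha cells were present in all cultures with a smaller median CV than the hormones. IRX2, a homeodomain factor of alpha cells, was at 189.6, 238 and 278 CPM (CV 14.2%), with DMSO 1 highest and DMSO 6 lowest, and its relative IRX1 at 135, 188 and 201 CPM. ISL1, a LIM-homeodomain factor of all islet endocrine cells, had the smallest CV of the list, 6.91%, with levels of 209.6, 225 and 252 CPM. RFX6, a factor needed to form islet endocrine cells, spread more widely, at 77.1, 130.3 and 192 CPM. FEV, a factor of endocrine progenitors and serotonin-making cells, was at 139.9, 175 and 208 CPM. POU3F4 (BRN4), described as an alpha cell factor in the mouse, was at 0.436 to 3.45 CPM. In all, 12 of 13 factors had 1 CPM or more in 6 of 6 cultures. The median CV of the 13 was 25.2%, or 15.7% without DMSO 2. Over all genes tested the median CV was 21.8%, and over genes with a mean of 10 CPM or more it was 17.8%. All 5 of the markers given for these cultures, GCG, TTR, IRX2, SST and INS, had 1 CPM or more in 6 of 6. Among them, SST and INS are the hormones of delta and beta cells.

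Factors shared by islet endocrine cells made up a further list of 22, of which 19 reached 1 CPM in 6 of 6 cultures. NEUROD1 was at 192, 243 and 374 CPM and PAX6 at 128, 247 and 259 CPM, both activators of hormone genes. INSM1, a zinc finger factor of endocrine cells, was at 149, 191 and 252 CPM, and NKX2-2 was at 49.6, 60.6 and 76.6 CPM. The pioneer factor FOXA2 varied little, at 84.8, 93.2 and 106 CPM (CV 8.15%). SOX4 and SOX11, which are higher in immature endocrine cells, were at 194, 264 and 384 CPM and 56.9, 96.7 and 157 CPM, and both were highest in DMSO 1. The mean level was 1.32 CPM for MYT1, 0.796 CPM for INSM2 and 0.71 CPM for LMX1A.

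Beta cell factors were uneven. PDX1, which is needed for pancreas formation and beta cell function, was at 80.3, 102 and 147 CPM, and NKX6-1 at 41.9, 46.6 and 56.3 CPM. MAFA, a factor of mature beta cells, was at 0.212 to 1.07 CPM, and G6PC2, an islet glucose-6-phosphatase of mature beta cells, at 0 to 0.148 CPM. NKX6-1, MAFA and G6PC2 were chosen for mention after their values were seen. DLK1 and IGF2, a pair of imprinted genes on the beta cell marker list, were at 1042, 2119.6 and 3104 CPM and 333, 479 and 1207 CPM, and neither is restricted to beta cells. Of 20 beta cell markers, 17 had 1 CPM or more in 6 of 6 cultures.

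**Figure D2:**
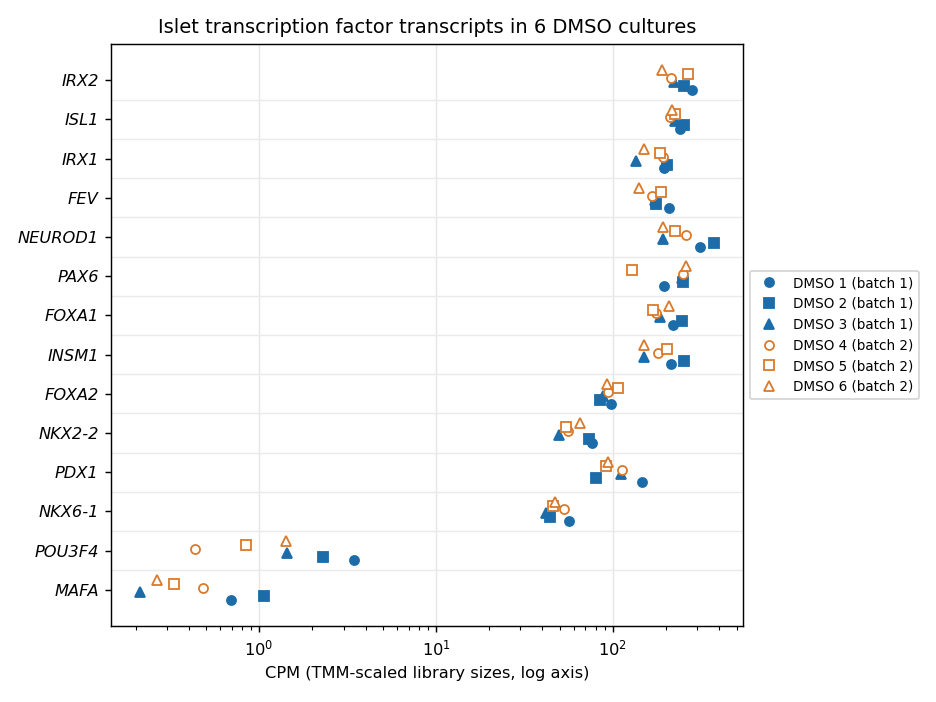
Level of 14 islet transcription factor transcripts (CPM, log axis) in each of the 6 DMSO cultures, 1 point per culture, filled for batch 1 and open for batch 2. IRX2 and ISL1 points lie close together, and MAFA stays between 0.212 and 1.07 CPM.

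Transcripts for processing of hormone precursors were present throughout. CPE, the carboxypeptidase that trims basic residues from cut hormones, was at 1220.1, 1473 and 2181 CPM, and PCSK1N, an inhibitor of the convertase PCSK1, at 1093, 1381 and 1970.2 CPM. PCSK2, the convertase that releases glucagon from its precursor, was at 73.8, 172 and 272 CPM (CV 40.1%), lowest in DMSO 3 and highest in DMSO 2. PCSK1, which makes GLP-1 from the same precursor in gut and brain, was at 95.8, 122 and 207 CPM. Per kilobase of exon the mean was 24.5 CPM for PCSK2 and 25.9 CPM for PCSK1, a difference smaller than the spread of either over cultures. PAM, which amidates peptide ends, was at 271, 366 and 509 CPM. Of 15 processing genes, 14 had 1 CPM or more in 6 of 6 cultures. The exception was SCG5, the chaperone of PCSK2, with 0 to 4 counts per culture. Its span lies wholly within the read-through gene ARHGAP11A-SCG5, which had 0 counts in each culture. GET1, which helps insert membrane proteins, is also covered by a read-through gene and had 385 to 891 counts. FXYD6, a regulator of the sodium pump, is covered over 98.1% of its span and had 1012 to 3062. The cover given for these genes is of the gene span and not of exons. FKBP2, a prolyl isomerase of the endoplasmic reticulum, had 1 to 3 counts, and no exon overlap was found for it. The part of counting in these values was not tested, and SCG5, FXYD6 and FKBP2 were chosen for mention after their values were seen.

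Among granule genes, the granin SCG2 was at 1133, 1265 and 1849 CPM, CHGA at 1055, 1177 and 1709 CPM and CHGB at 655, 823 and 1248 CPM, and PTPRN (IA-2), a membrane protein of dense granules, at 478, 888 and 1177 CPM. Between the lowest and the highest culture these 4 genes differed by 1.62-fold (CHGA) to 2.46-fold (PTPRN). VGF, the precursor of several neuroendocrine peptides, differed from them, at 323, 346, 146, 331, 713 and 1269 CPM in DMSO 1 to DMSO 6. Its highest culture was DMSO 6, as for SST and CHGB. All 22 granule genes had 1 CPM or more in 6 of 6 cultures, with a median CV of 20.3%.

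The exocytosis list was detected almost whole, with 38 of 39 genes at 1 CPM or more in 6 of 6 cultures and a median CV of 21.3%. SYT7, a high-affinity calcium sensor of granule release, was at 277, 363 and 471 CPM. RAB3B, a small GTPase of secretory granules, was at 258, 368 and 433 CPM, and UNC13A, which primes granules, at 223, 348 and 446 CPM.

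For entry of new protein into the endoplasmic reticulum, 27 of 27 genes reached 1 CPM in 6 of 6 cultures. Their median CV of 14.8% was the smallest of the 35 lists. SEC61A1, the pore of the translocon, was at 322, 352 and 394 CPM (CV 9.29%), and SRP14, a subunit of the signal recognition particle, at 273, 364 and 426 CPM. All 31 genes of COPII and COPI vesicle transport also reached that level, with a median CV of 16%.

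Folding factors followed, with HSPA5 (BiP) at 631, 841 and 1054 CPM and CALR (calreticulin) at 573, 1128 and 1301 CPM. DMSO 3 was the lowest culture for 15 of the 23 folding genes tested, and DMSO 2 was the highest for 11 and DMSO 6 for 8. Over all genes tested, DMSO 3 was lowest for 23.6%, DMSO 2 highest for 20.6% and DMSO 6 highest for 11.5%. TXNDC5, a protein disulfide isomerase of this list, had 7 to 84 counts per culture, against a span wholly covered by the read-through gene BLOC1S5-TXNDC5 with 0 counts. It was chosen for mention after its values were seen.

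**Figure D3:**
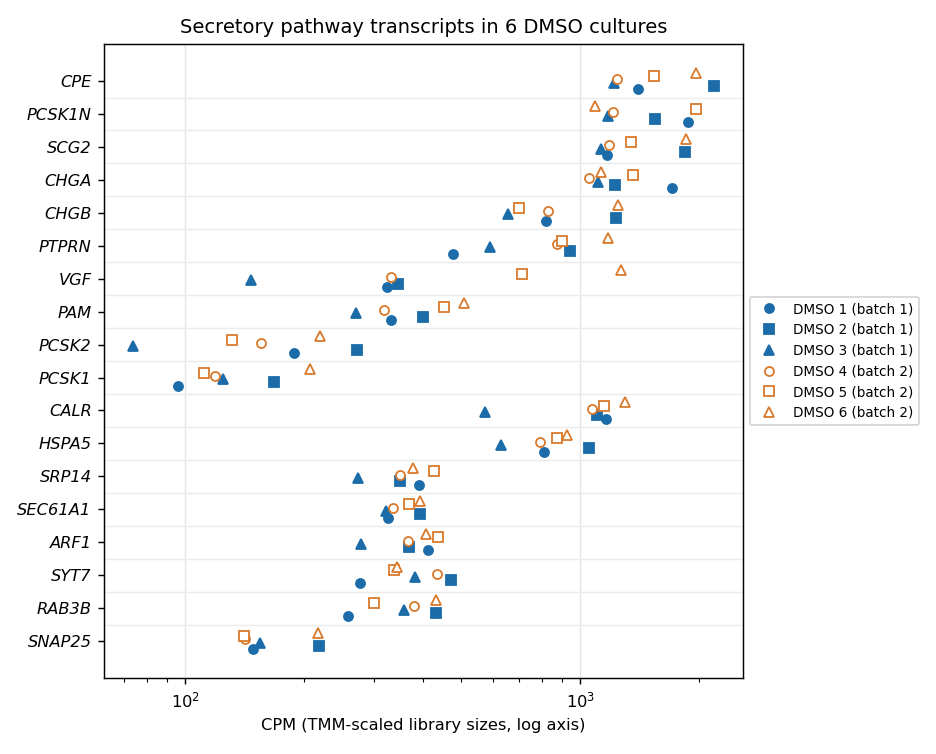
Level of 18 secretory pathway transcripts (CPM, log axis) in each of the 6 DMSO cultures, 1 point per culture, filled for batch 1 and open for batch 2. SEC61A1 and SRP14 points lie close together, whereas VGF spreads from 146 in DMSO 3 to 1269 CPM in DMSO 6, and CALR is lowest, at 573 CPM, in DMSO 3.

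Genes of alpha cell function other than hormones were also measured. ALDH1A1, a retinaldehyde dehydrogenase found in human alpha cells, was at 1556, 1885 and 2736 CPM. SERPINA1 (alpha-1 antitrypsin) was at 298, 616 and 875 CPM and IGFBP2, which binds insulin-like growth factors, at 760.2, 1305 and 2204 CPM. RGS4, which damps signals of G protein-coupled receptors, was at 190, 317 and 685 CPM and PTGER3, a prostaglandin E receptor, at 139.6, 159 and 395 CPM, and both were highest in DMSO 2. Of 31 effector genes, 30 reached 1 CPM in 6 of 6 cultures.

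Among 38 channel genes, 36 reached 1 CPM in 6 of 6 cultures. ABCC8, the sulphonylurea receptor of the ATP-sensitive potassium channel, was at 697, 769 and 1061 CPM, and its pore subunit KCNJ11 at 101, 125 and 144 CPM. CACNA1H, a low-voltage calcium channel, was at 210.1, 298 and 326 CPM. KCNK16, a potassium channel of islet cells, was at 213, 281 and 370.4 CPM. The channel list was highest in DMSO 3 (3653 CPM summed) and lowest in DMSO 5 (2634 CPM).

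Among receptors, GIPR, which answers the gut hormone GIP, was at 369, 415 and 919 CPM. DMSO 3 was highest and the next culture, DMSO 6, was at 513 CPM. SSTR2, through which somatostatin restrains glucagon release, was at 336, 410.5 and 461 CPM (CV 12.8%). The glucagon receptor GCGR was at 5.84, 10.4 and 13.4 CPM and the GLP-1 receptor GLP1R at 11.3, 16 and 23 CPM. KCNJ11, GCGR and GLP1R were chosen for mention after their values were seen. Of 30 genes of glucose sensing and metabolism, 27 reached 1 CPM in 6 of 6 cultures. DMSO 3 was lowest for 16 of the 27 tested (59.3%), beside 23.6% of all genes tested.

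Transcripts of other cell types were measured with lists of their markers. By summed level, heart muscle markers differed most between cultures of the 35 lists, with a summed level of 40.6 CPM in DMSO 2 and 2618 CPM in DMSO 5, and with DMSO 1 at 731 CPM and DMSO 4 at 493 CPM. TNNT2, the cardiac troponin T, was at 75.2, 0.776, 2.5, 60.8, 489 and 3.01 CPM in DMSO 1 to DMSO 6. In DMSO 3 and DMSO 6 the list summed to 95.9 and 69.9 CPM, much of it from TTN, which was at 24.9 to 61 CPM over the 6 cultures and was named after its values were seen. The 22 markers had a median CV of 144% over the 20 tested.

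Neural crest and glial markers were mostly highest in DMSO 1, which led for 6 of the 8 tested, beside 12.7% of all genes tested. SOX10, the factor that defines neural crest and glia, was at 58.9 CPM there and at 2.55 to 8.47 CPM in the other cultures. NGFR, a neurotrophin receptor of the same cells, was at 57.3 CPM in DMSO 1 and at most 4.31 CPM elsewhere. CRABP1, a retinoic acid-binding protein, was at 51.8 CPM in DMSO 1 and at most 3.85 CPM elsewhere. ERBB3, which is also made by epithelial cells, was even, at 193, 261 and 286 CPM.

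Mesenchymal markers were detected in every culture, with 19 of 19 at 1 CPM or more in 6 of 6. Their sum was 1636 CPM in DMSO 2, 2898 CPM at the median and 4226 CPM in DMSO 1, which was highest for 15 of 19 genes and for 12.7% of all genes tested. FN1 (fibronectin) and VIM (vimentin), which stem cell-derived endocrine cells can also make, contributed the most counts. DCN (decorin), a proteoglycan of fibroblasts, was at 1.51, 4.06 and 51.9 CPM. Endothelial markers summed to 78 to 210.3 CPM.

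Markers of other pancreatic cell types were also found. Of 22 acinar markers, 10 reached 1 CPM in 6 of 6 cultures. CLPS (colipase), the cofactor of pancreatic lipase, was at 47.5, 165 and 214 CPM, whereas PNLIP (pancreatic lipase) and SYCN (syncollin) had 0 counts in all 6. KRT19, a keratin of ducts, was at 140.3, 203 and 292 CPM and SOX9, of ducts and progenitors, at 71.5, 115 and 173 CPM. For delta cells, HHEX, the factor that maintains them, was at 18.2, 23.4 and 32.6 CPM and did not share the order of SST, since DMSO 6 stood at 21.8 CPM. Of 11 delta cell markers, SST and HHEX among them, 7 reached 1 CPM in 6 of 6 cultures. GHSR, the ghrelin receptor of delta cells, had 0 counts in every culture.

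TTR is also a product of the liver, so liver markers were measured beside it. Of 17, 12 reached 1 CPM in 6 of 6 cultures, but the list and this count include TTR itself and SERPINA1, given above. APOA1, an apolipoprotein of liver and gut, was at 15.6, 35.4 and 55.7 CPM. AFP (alpha-fetoprotein) was at 14, 26.9 and 59.6 CPM. The part of liver-type expression in the TTR level was not tested.

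Enterochromaffin cells, the serotonin-making cells of the gut, are a known by-product of islet differentiation. DDC, which makes serotonin from its precursor, was at 175, 202 and 218 CPM (CV 8.78%). TPH1, the rate-limiting enzyme of serotonin synthesis, was at 50.4, 82.8 and 319 CPM, with DMSO 3 highest and DMSO 2 next at 104 CPM. LMX1A, a factor of these cells, was at 0.221 to 1.11 CPM. Of 12 enterochromaffin markers, 7 reached 1 CPM in 6 of 6 cultures. They include FEV, given above with the alpha cell factors.

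Of 12 pluripotency markers, 4 reached 1 CPM in 6 of 6 cultures, and of 15 endocrine progenitor genes, 13 did. TDGF1, a marker of undifferentiated stem cells, had 0 counts in all 6 cultures, and the 4 pluripotency markers found throughout included SOX2 and TERF1, which are not limited to stem cells. NEUROG3, the factor of endocrine progenitors, was at 5.03, 8.59 and 17 CPM and was named after its values were seen. Transcripts of dividing cells were found in every culture. All 28 proliferation genes reached 1 CPM in 6 of 6, with TOP2A, a topoisomerase of dividing cells, at 44.6, 67.9 and 99 CPM. Blood markers HBA1, HBA2, HBB, HBG1 and HBG2 had 0 counts in all 6, as did the muscle factor MYF5 and the stomach marker GKN1. A count of 0 allows up to 3 counts, which is 0.103 to 0.159 CPM over the 6 libraries after TMM scaling, for counting error only. Immediate early genes, which respond within minutes to handling and signals, were uneven. EGR1 was at 99.8, 332 and 678 CPM and FOS at 36.8, 205 and 448 CPM, and both were highest in DMSO 3 and lowest in DMSO 6. Of the 19 genes of that list tested, DMSO 3 was highest for 4 and DMSO 5 for 6, beside 25.1% and 21.8% of all genes tested.

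**Figure D4:**
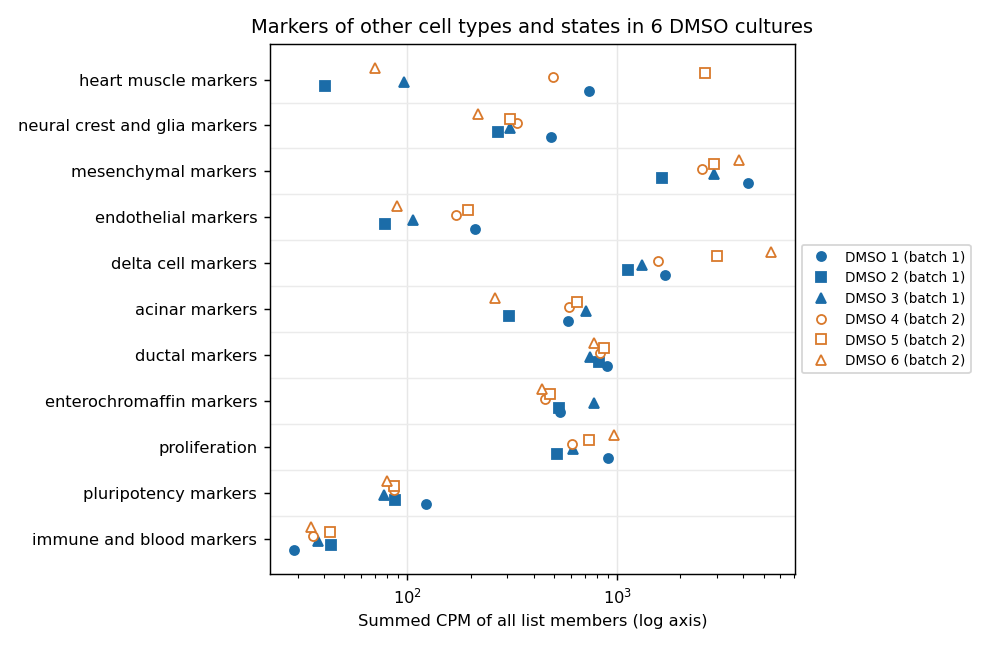
Summed level of all members of 11 marker lists (CPM, log axis) in each of the 6 DMSO cultures, 1 point per culture, filled for batch 1 and open for batch 2. Heart muscle markers spread from 40.6 to 2618 CPM, delta cell markers, whose sum is mostly SST, from 1127 to 5411 CPM, and immune and blood markers stay between 28.7 and 43.2 CPM.

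At the mean over the 6 cultures, 2289 genes reached 100 CPM and 38 reached 1000 CPM. The 10 genes with the most counts took 10.6% to 14.3% of a library. Besides GCG and TTR these included EEF1A1, an elongation factor of translation at 4432, 6027 and 7104 CPM, and GNAS, the stimulatory G protein subunit that couples glucagon and incretin receptors to cyclic AMP, at 2670.2, 4573 and 4852 CPM. The 73 ribosomal protein genes with a mean of 10 CPM or more summed to 29402 CPM in DMSO 3, 33737 CPM at the median and 50191 CPM in DMSO 5. That set is not among the 35 lists and was added after the data were seen.

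Among 10989 genes with a mean of 10 CPM or more, the median CV was 17.8%, with quartiles of 13.4% and 23.6%. A CV of 50% or more was found for 203 genes (1.85%) and a CV of 10% or less for 1059 genes (9.64%). The least variable transcript was DCTD, the deoxycytidylate deaminase of nucleotide synthesis, at 75.6, 76.9 and 79 CPM (CV 1.76%). GLUL (glutamine synthetase, CV 2.55%), the histone demethylase KDM1A (2.52%) and the septin SEPTIN2 (2.73%) were also among the 10 steadiest. The 10 most variable were CRABP1, NGFR, SOX10 and 7 heart muscle genes, NPPA, CSRP3, TNNC1, MYL7, MYL4, ACTC1 and TNNT2. CV values of these 10 ran from 154% for SOX10 to 194% for CRABP1.

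**Figure D5:**
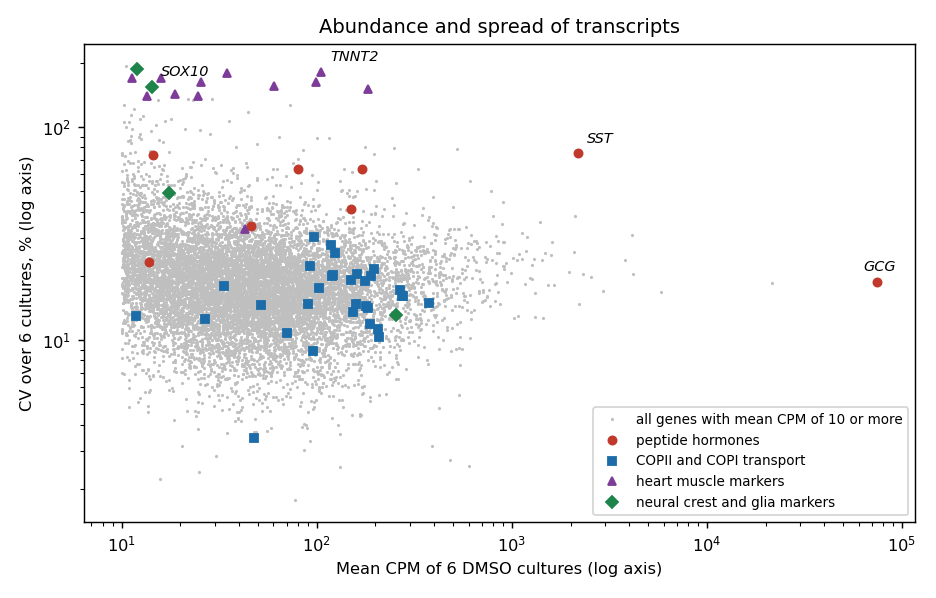
CV over the 6 DMSO cultures (percent, log axis) against mean level (CPM, log axis), 1 grey point for each of the 10989 genes with a mean of 10 CPM or more and coloured points for members of 4 lists. GCG lies at the far right with a CV of 18.6%, SST lies above it at 74.9%, and heart muscle and neural crest genes such as TNNT2 (181%) and SOX10 (154%) lie at the top.

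The only factor that the labels give among these cultures is the batch. Whether transcripts differed between the 3 cultures of batch 1 and the 3 of batch 2 was tested with edgeR's quasi-likelihood test and Benjamini-Hochberg adjustment over 16867 genes. It called 1 gene at an adjusted p under 0.05 (0.00593%), a sex-linked gene that is in no list and is not named here. An unadjusted p under 0.05 was found for 1160 genes (6.88%), and CPM ranges did not overlap between batches for 2250 genes (13.3%). DESeq2 called 42 genes and limma-voom 2, and with each culture left out in turn edgeR called 2 to 15, the most without DMSO 1. On simulated counts for this comparison, with 16585 genes tested, the edgeR test recovered 64% of genes raised 2-fold, 98% of those raised 4-fold and 92% of those lowered 4-fold. Changes were planted only in genes above a minimum count, 50 genes for each fold. Spread followed the trend over genes, with no single culture made to stand apart. The many planted changes also ease the adjustment, so these rates do not tell what was missed in the real cultures.

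Of 580 list genes tested, edgeR called 0, beside 0.00593% of all genes. An unadjusted p under 0.05 was found for 74 (12.8%, against 6.88% of all genes). DESeq2 called 3 of the 576 to which it gave an adjusted p (0.521%, against 0.249% of all genes) and limma-voom called 0 (0.0119% of all genes). The 3 were TRH, the thyrotropin-releasing hormone, and the neuronal genes GAP43 and GAD1, of which GAD1 was named after its values were seen. TRH was at 1.91 CPM at the mean of batch 1 and 13.4 CPM at that of batch 2, with no overlap and an edgeR adjusted p of 0.187. SST was at 1211 CPM in batch 1 and 3148 CPM in batch 2 at the mean, and INS at 107 and 234 CPM. The edgeR adjusted p was 0.702 for both, and their ranges overlapped between batches. For GCG the batch means were 77360.3 and 72336 CPM (edgeR adjusted p = 0.936). Among the alpha cell factors, RFX6 was at 164 and 104 CPM without overlap, with an edgeR adjusted p of 0.702.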

How the data were processed

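The values are raw counts of reads per gene symbol (28278 symbols), deposited without normalization. The submitters' processing notes name the build GRCh38, featureCounts 2.0.6, HISAT2 2.1.0 and cutadapt 4.4. Which annotation and strand setting were used for counting is not stated there, and overlapping, antisense and near-identical genes therefore have uncertain counts. Total RNA was taken with a column kit and made into libraries with NEBNext Ultra II chemistry, per the labels' protocols.

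Counts of the 6 DMSO cultures alone were scaled with TMM and passed through edgeR's filterByExpr, leaving 16867 genes (edgeR 4.0.16, R 4.3.3). Batches were compared with edgeR's quasi-likelihood test at an adjusted p under 0.05, and DESeq2 1.42.0 and limma-voom (limma 3.58.1) were alternatives. Simulated counts gave 181 calls, of which 4 were false. P-values measure the spread between these cultures only. Shares and ranks of counts are not corrected for length, and levels were compared between genes per kilobase, with exon lengths from GENCODE release 29 for GRCh38, which matched 26218 symbols. Sequences are from RefSeq.

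The members and the 35 gene lists (645 distinct genes in the table) were chosen with earlier results of these data known. Named genes are the 5 given markers, the 25 genes with the most counts, the 4 members with the most counts and the 2 with the largest CV in each list, markers at 0, and the 10 genes with the largest and smallest CV. The hormone and islet factor lists could be named whole. Genes most like GCG were also provided for but were not used. Other names are identified as chosen after their values were seen. Sex-linked genes were not named, and some genes within the rule are not reported here.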

Additional observations from a re-analysis of the deposited data

Results flagged for a closer look

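Of 120 genes named, 20 had 1 culture far from the other 5, by the gap to the nearest culture as a share of the whole range (Dixon's 95% critical value for 6 samples). Chance gives such a gap in about 1 of 20 groups, but the named genes include the 10 with the largest CV, all among the 20, so this count was not set against that rate. Among all 10989 genes with a mean of 10 CPM or more, 1084 (9.86%) had one, with DMSO 3 as the distant culture for 369, DMSO 2 for 298, DMSO 5 for 289, DMSO 1 for 70, DMSO 6 for 45 and DMSO 4 for 13.

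DMSO 5 stood apart, on the high side, for heart muscle genes. It reached 489 CPM for TNNT2, 418 CPM for MYL7, 242 CPM for ACTC1, 159 CPM for NPPA, 105 CPM for MYL4, 68.8 CPM for TNNC1 and 49 CPM for CSRP3. DMSO 1 and DMSO 4 held intermediate levels of these genes.

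DMSO 1 stood apart, on the high side, for the neural crest genes SOX10 (58.9 CPM) and NGFR (57.3 CPM), for CRABP1 (51.8 CPM) and for SOX2 (42.2 CPM), a factor of neural and other progenitors. It was also distant for SEPTIN2, at 507 CPM with the other cultures between 470.2 and 484 CPM, a small difference in a gene of very small spread.

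DMSO 3, the culture with the fewest counts, stood apart for 4 genes. It was highest for GIPR (919 CPM), TPH1 (319 CPM) and NEUROG3 (17 CPM) and lowest for CALR (573 CPM).

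DMSO 2 stood apart for PTGER3 (395 CPM) and TXNDC5 (3.1 CPM), and DMSO 6 was low for ERBB3 (193 CPM). SCG5 in DMSO 4, at 0.194 CPM, rests on 4 counts.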

How the results depend on the processing

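No paired analysis was possible because the comparison is between batches, whose cultures share no replicate numbers. The number of genes called between batches, 1 with edgeR, was 1 with DESeq2 size factors or unscaled library totals, 42 with DESeq2, 2 with limma-voom and 18 with no filter on low counts. It was 2 to 15 with each culture left out in turn. The cause was not tested. With each culture left out, the median CV of the alpha cell factor list was 15.7% to 25.9%, the lowest without DMSO 2, and that of the neural crest list was 50.7% to 105%, the lowest without DMSO 1. Limiting lists to members with a mean of 10 CPM or more left fewer genes and lowered the median CV to 23.5% for PP cell, 26.2% for epsilon cell, 22.9% for enterochromaffin, 23.1% for skeletal muscle, 22.6% for immune and blood, and 22.8% for pluripotency markers. The median ratio of GCG to SST per kilobase was 23.1 with the longest transcript as the length. That of GCG to INS was 80.9 when only INS exon bases not shared with another gene were counted as its length, an alternative chosen after seeing the data. The other 304 alternative values of summaries stayed within 1.5 times, or within 1 SD, of the values reported. Among them, the mean GCG share with 1 culture left out could not fail the limit of 1 SD. For the ratio of GCG to INS that limit was wide, with an SD of 191.8 beside a median of 118.4. The number 304 is therefore not a measure of robustness. All 960 alternative mean levels of the named genes stayed within 1 SD. For levels with 1 culture left out that limit could not fail, because dropping 1 culture cannot move these means by 1 SD. Those levels therefore do not show that a mean is independent of a single culture. The mean of CRABP1, for example, was 10.48 CPM and fell to 2.21 CPM without DMSO 1. Levels with other scaling hardly put the limit to a test either, because TMM factors ran only from 0.9475 in DMSO 5 to 1.075 in DMSO 3. The 960 values therefore show little about how far levels depend on processing. Totals of 17523442 to 28872269 counts leave genes under 1 CPM with few counts. The 3 cultures of a batch, and 1 cell line, limit what the comparison can show.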
